A study of Homo sapiens with 9 samples.

Results

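The vehicle libraries of a citrinin exposure experiment were described here as a picture of SH-SY5Y cells without the toxin. The study exposed SH-SY5Y, a human neuroblastoma cell line, to 0, 10 or 20 µM citrinin, a mycotoxin made by moulds, for 72 h, and sequenced total RNA from 3 replicates of each dose. The 3 libraries titled 0 µM were taken, out of 9 in all, by that title alone, and no dose was compared with another. These cells were kept for 72 h in MEM/F12 medium with fetal bovine serum, carry no added genetic change that the labels name, and are called vehicle replicates 1, 2 and 3 below. Whether the replicates came from separate cultures is not in the labels, and their spread may be partly technical.

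SH-SY5Y was derived from a neuroblastoma, a childhood tumour of the sympathetic nervous system that arises from neural crest cells. Sympathetic neurons and chromaffin cells are specified by a small circuit of transcription factors, among them the homeodomain proteins PHOX2A and ISL1, the basic helix-loop-helix protein HAND2, and the zinc finger proteins GATA2 and GATA3, which together switch on the enzymes and transporters of noradrenaline. Neuroblastoma cells are known in an adrenergic state, which keeps this circuit, and in a mesenchymal state that is closer to migrating neural crest and expresses matrix and mesenchymal genes. Levels are given as counts per 1000000 gene reads (CPM), which serve to compare one gene between libraries, and as transcripts per 1000000 transcripts (TPM), which divide by exon length and serve to compare genes with each other. TPM are means ± SD, n = 3.

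The libraries held 17157756, 17566221 and 17164852 reads in genes, between 76.7% and 77.1% of all reads, so that 3 reads equalled 0.171 to 0.175 CPM. A count of 0 in a library therefore allows a level up to that value, for counting error only. Between 9.74% and 9.95% of reads overlapped more than 1 gene and were assigned to none, and the kit did not mark strand, so a low count is not always little RNA. SDHA, a subunit of respiratory complex II that nearly all cells use, stood at 2.04, 1.48 and 1.63 CPM in replicates 1, 2 and 3. The glycolytic enzyme ALDOA stood at 1.98, 1.25 and 1.57 CPM. The lactate dehydrogenase subunit LDHB was at 2.1, 1.02 and 1.28 CPM. How many of their reads were dropped as ambiguous was not tested. For this reason genes without reads are described as counted at 0 and not as silent. The deposited tables also count each strand apart, and the sum of those columns keeps reads that overlap genes on opposite strands, but divides them between both genes whichever they came from. For 1225 expressed protein-coding genes (9.43%) this sum was at least 1.5 times the joint count. It is given beside several of the genes it touches below, and a gene without it may be touched too. For touched genes the joint count may be too low and the strand sum may hold reads of the partner.

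Of 19854 protein-coding genes, 12989 (65.4%) had a mean of at least 1 CPM and are called expressed. At least 10 CPM was reached by 10107 genes, at least 100 CPM by 2131 and at least 1000 CPM by 58. Another 3551 genes had a read but stayed under 1 CPM, and 3314 (16.7%) had no read in any vehicle library. Of these 3314 genes, 2530 had no read in the 6 citrinin libraries either, and 474 share so much sequence with other annotated genes that under 20% of their exon bases are their own.

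The 4 markers of the sympathetic lineage were all expressed in each library. On these 4 genes alone the values do not go against the label of the line, which was not tested further. HAND2, which drives noradrenergic differentiation, was at 1202, 973 and 933 CPM in replicates 1, 2 and 3. PHOX2A, a direct regulator of noradrenaline genes, was at 466, 343 and 297 CPM. GATA2, a zinc finger factor, was at 527, 453 and 368 CPM. The LIM homeodomain factor ISL1 was at 169.8, 108 and 111 CPM. Replicate 1 was the highest for each of the 4 markers, and replicates 2 and 3 lay close together for HAND2 and ISL1. Per exon length the order was HAND2 (936 ± 108 TPM), PHOX2A (671 ± 143 TPM), GATA2 (328 ± 52.2 TPM) and ISL1 (146 ± 35.1 TPM), and the TPM values of the 3 libraries did not overlap between neighbours in that order.

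HAND2 lies on the minus strand at chr4:173524969-173530229 (GRCh38, GENCODE 29) and shares its locus with the antisense long noncoding RNA HAND2-AS1 at chr4:173527270-173659696 on the plus strand. HAND2-AS1 was at 908, 726 and 663 CPM. Reads where the 2 genes overlap were dropped from both: 75.9% of the exon bases of HAND2 are unshared, and the sum of the strand-by-strand counts of HAND2 over the vehicle libraries was 70674 reads, 1.32 times its joint count. RefSeq places a start of HAND2-AS1 229 bases from that of HAND2, pointing away from it. The stretch between these starts is shown because 2 genes with high counts have starts at its ends, pointing apart. Gene counts do not tell which start the HAND2-AS1 reads came from. The 150 bases before the starts of PHOX2A, ISL1 and GATA2 are shown beside it because these genes are the other markers. All are RefSeq sequences on GRCh38.p14, on the strand of the named gene and ending at the base before its start: HAND2 is chr4:173530230-173530457 (minus strand), PHOX2A is chr11:72244177-72244326 (minus), ISL1 is chr5:51383298-51383447 (plus), and GATA2 is chr3:128493202-128493351 (minus; 1 of 2 GATA2 starts). Capitals mark core motifs of the markers' own factor families, searched on both strands and allowed to overlap: CANNTG for basic helix-loop-helix factors, GATAA for GATA factors and ATTA for homeodomain factors.
HAND2: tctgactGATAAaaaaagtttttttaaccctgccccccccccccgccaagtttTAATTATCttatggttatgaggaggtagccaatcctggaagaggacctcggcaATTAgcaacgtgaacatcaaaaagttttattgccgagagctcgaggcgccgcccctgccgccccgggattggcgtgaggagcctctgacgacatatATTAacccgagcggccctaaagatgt
PHOX2A: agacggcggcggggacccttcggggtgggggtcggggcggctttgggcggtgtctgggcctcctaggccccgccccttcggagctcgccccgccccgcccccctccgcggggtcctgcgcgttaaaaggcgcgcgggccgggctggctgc
ISL1: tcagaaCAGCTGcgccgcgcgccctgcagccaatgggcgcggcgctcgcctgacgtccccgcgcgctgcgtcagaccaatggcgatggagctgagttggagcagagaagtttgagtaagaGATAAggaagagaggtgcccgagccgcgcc
GATA2: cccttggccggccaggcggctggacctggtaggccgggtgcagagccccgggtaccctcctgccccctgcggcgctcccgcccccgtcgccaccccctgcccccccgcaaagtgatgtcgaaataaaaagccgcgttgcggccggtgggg

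Between the HAND2 and HAND2-AS1 starts there were 2 matches to the GATA-factor motif, 4 to the homeodomain motif, of which a pair overlaps, and 0 to the helix-loop-helix motif. A GATA-factor match overlaps that pair. The ISL1 stretch held 1 helix-loop-helix and 1 GATA-factor match in its 150 bases, and those of PHOX2A and GATA2 held no match. Over 27305 RefSeq promoter windows, 150 bases before the start held the helix-loop-helix motif in 44.4%, the GATA-factor motif in 12.5% and the homeodomain motif in 33.6%, and 228 bases held them in 59.0%, 19.2% and 45.3%. These windows differ in base composition, with 79.3% G and C in the PHOX2A stretch and 50.9% in the HAND2 stretch. The matches describe the letters only.

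Most listed members of the wider circuit were expressed. This list and the other gene lists below were chosen with earlier results of these data known, so their shares are no test of a lineage. Of 25 adrenergic lineage transcription factors, 23 were expressed (92.0%, beside 65.4% of all protein-coding genes), 22 of them at 10 CPM or more. GATA3, a relative of GATA2, was at 291, 209 and 188 CPM. Replicate 1 was the highest library, as for the markers. SOX4, an SRY-box factor of progenitor cells, was at 624, 343 and 315 CPM. TBX2, a T-box factor of the same circuit, was at 302, 257 and 246 CPM. HAND1, a close relative of HAND2, stood at 80.8, 75.6 and 67.5 CPM. The exceptions were TFAP2A at 0, 0.228 and 0.291 CPM and INSM1, a zinc finger factor of neuroendocrine cells, which was counted at 0 in the 3 libraries. Replicate 1 was the highest of the 3 for 18 of the 23 expressed factors, beside 39.9% of all expressed genes.

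Mesenchymal-state genes were expressed alongside them. Of 24 mesenchymal-state transcription factors, 20 were expressed (83.3%, beside 65.4% of all protein-coding genes), and all 20 genes of a mesenchymal and fibroblast structural list were, 12 of them at 100 CPM or more. TWIST1, a helix-loop-helix factor of migrating neural crest, was at 224, 215 and 183 CPM. TEAD1, the DNA-binding partner of YAP1, was at 260.4, 282 and 305 CPM. Neither differed much between the libraries. PRRX1, a homeodomain factor that defines mesenchymal neuroblastoma cells, was at 140.2, 33.6 and 95 CPM, lowest in replicate 2. FN1, which encodes fibronectin, was at 3438, 2603 and 3822 CPM. COL3A1, a fibrillar collagen chain, was at 1656, 1336 and 1699 CPM. VIM, the mesenchymal intermediate filament, was at 459.6, 338 and 382 CPM, and its strand sum of 59906 reads was 2.94 times the joint count.

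The structural genes were led per length by LGALS1 (953 ± 59.7 TPM), a galactose-binding lectin, followed by COL3A1 (747 ± 86 TPM), FN1 (618 ± 113 TPM) and SPARC (370.0 ± 107 TPM), a collagen-binding matrix protein. With the length of the longest transcript in place of all exon bases, FN1 (920.5 TPM) lay above COL3A1 (724 TPM). The place of VIM in that order is uncertain, since its 248 ± 32.4 TPM rest on the joint count. Replicate 2 was the lowest for 15 of the 20, beside 27.6% of all expressed genes. POSTN, which encodes the matrix protein periostin, showed it most: it was at 62.5, 0 and 38.3 CPM, so replicate 1 was at least 366-fold higher than replicate 2, taking 3 reads as the limit for the latter. COL1A1 was at 456, 66.8 and 271 CPM, also lowest in replicate 2. In bulk RNA a smaller share of cells of one kind and less RNA per cell cannot be told apart, and neither can 1 population in both states and a mixture of populations.

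**Figure D1:**
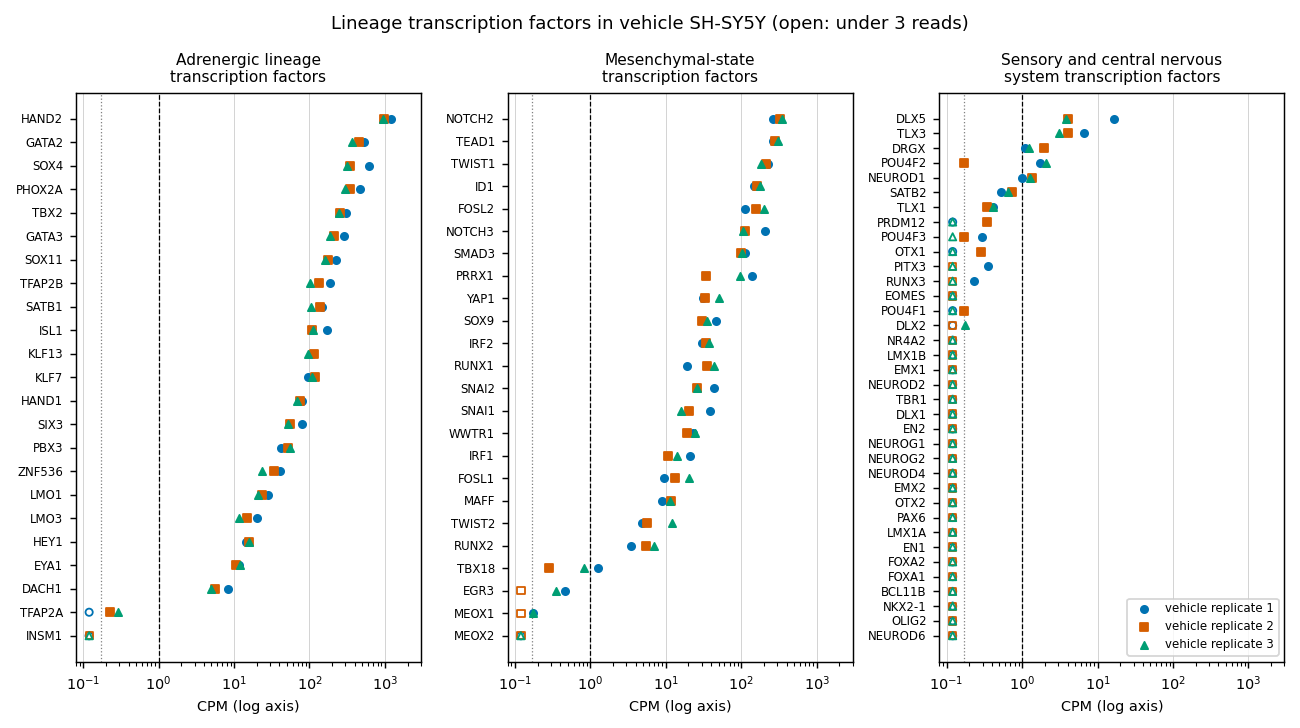
Levels of lineage transcription factors in CPM on a log axis, in the 3 vehicle libraries (blue circles, replicate 1; orange squares, replicate 2; green triangles, replicate 3). A few members of these lists are not drawn. Open symbols at the left edge stand for libraries with under 3 reads, the dotted line marks about 3 reads and the dashed line 1 CPM; most adrenergic and mesenchymal-state factors lie to the right of the dashed line, and most sensory and central nervous system factors lie to its left.

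The plot of lineage factors sets those of other neural lineages beside these. Over all protein-coding genes, the share expressed was 65.4% and the share without a read 16.7%. Of 12 sensory neuron factors, 4 were expressed, the highest per length being TLX3 (10.05 ± 3.8 TPM), and NEUROG1 and NEUROG2, which specify sensory neurons, were counted at 0. Of 25 factors that pattern the central nervous system, DLX5 alone was expressed, at 16.6, 4.04 and 3.79 CPM, and 12 were counted at 0, among them OTX2 and EN1. PAX6 had no joint read either, but 110 reads over the 3 libraries by the strand columns, by which 2 of the 25 factors were expressed. The strand sum of TLX3 was 1.73 times its joint count. Neural crest and Schwann cell genes were mixed, with 8 of 15 expressed. PMP22, a myelin protein also found outside glia, was at 147, 101 and 104 CPM, while SOX10, the factor that glial and melanocyte lineages need, was at 0.466, 0.455 and 0.291 CPM and FOXD3, an early crest factor, was counted at 0. Of 30 markers of unrelated cell types, 4 were expressed: CLDN4, ACTN2, EPCAM and KRT19. The whole list summed to 21.3, 18.4 and 19.6 CPM in replicates 1, 2 and 3. Its keratins KRT5 and KRT14, HBB (haemoglobin) and INS (insulin) were at 0. Other keratins were not: 6 of 50 keratin genes were expressed (12%). KRT18, outside this list, was the highest by CPM at 33.6, 25.3 and 38.9 CPM, with a strand sum 2.10 times its joint count. The leukocyte gene PTPRC was at 0.408, 0.285 and 0 CPM. The endothelial gene PECAM1 was at 0.466, 0.74 and 0.699 CPM.

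HOX genes, which encode position along the body axis and lie in 4 clusters, divided by cluster. None of the 11 HOXA and none of the 10 HOXB genes had a read in a vehicle library, and over all 9 libraries the HOXA genes had 0 reads and the HOXB genes 6. Strand-by-strand counts, which recover reads lost to antisense genes, gave 0 HOXA and 2 HOXB reads in the vehicle libraries. From the HOXC cluster 4 of 9 genes were expressed and from the HOXD cluster 5 of 9. Over all protein-coding genes, 65.4% were expressed and 16.7% had no read. HOXC4 was at 31.9, 33.5 and 28 CPM. HOXC6 was at 11.7, 13.8 and 10.6 CPM. HOXD8 was at 15.5, 37.1 and 17.7 CPM. HOXD9 was at 14, 30.9 and 19 CPM. The HOXD genes were highest in replicate 2, while the HOXC genes lay closer together. Posterior members were low: HOXD11 was at 0.291, 0.228 and 0.117 CPM, and HOXC11, HOXC12 and HOXC13 were counted at 0. HOXD3, HOXD4 and HOXC5 share most of their exon bases with other annotated genes, so that their counts are lower limits. The strand sum of HOXD3 was 1.94 times its joint count.

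**Figure D2:**
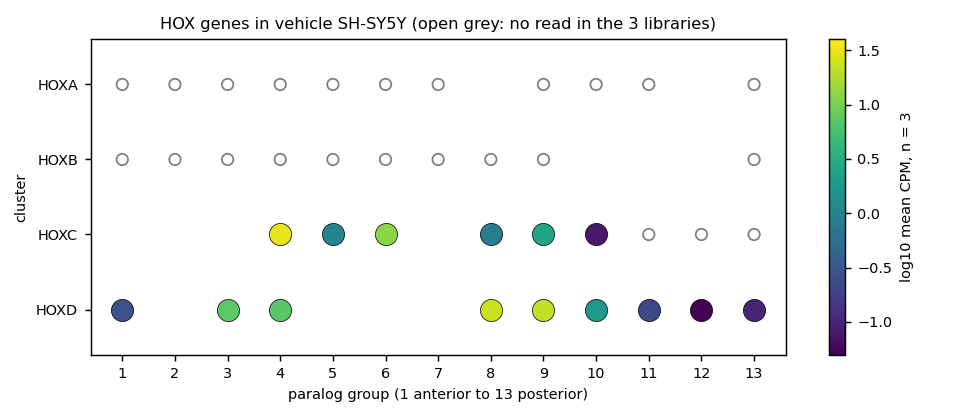
HOX genes by cluster (rows) and paralog group (columns); colour gives the log10 of the mean CPM over the 3 vehicle libraries, open grey circles mark genes with no read in them, and blank positions hold no gene. All 11 HOXA and 10 HOXB genes are open circles, while 4 HOXC and 5 HOXD genes reach 1 CPM or more.

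The map of HOX levels places the expressed genes in paralog groups 3 to 10. No expressed gene was found in groups 11 to 13 of any cluster. The long noncoding RNAs HOTTIP and HOTAIR, which are transcribed from the HOXA and HOXC clusters, were counted at 0.

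Neuronal genes were broadly expressed, beside 65.4% of all protein-coding genes. Of 31 neuronal cytoskeleton and RNA-binding genes, 29 were expressed (93.5%), and of 32 synaptic vesicle and release genes, 30 were (93.8%). STMN2, a microtubule regulator of growing axons, was at 599, 848 and 622 CPM. UCHL1, a neuronal deubiquitinase, was at 628, 739 and 647 CPM. Per length these led the list at 960.2 ± 106 TPM for UCHL1 and 954 ± 209.7 TPM for STMN2, within each other's spread, followed by TUBA1A at 778 ± 104 TPM. That order turned with the length of the longest transcript, which gave 1097 TPM for TUBA1A, 1095 TPM for UCHL1 and 799.6 TPM for STMN2. GAP43, a growth cone protein, was at 25.6, 129 and 98.6 CPM. NEFL, the light neurofilament, was at 27.3, 149 and 119 CPM. Replicate 1 was lowest by a wide margin for both. TUBB3, the neuronal beta tubulin used as a marker of this line, was counted at 3.26, 4.9 and 6.001 CPM. Only 64.2% of its exon bases are unshared in GENCODE 29, so that this value is a lower limit.

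Among genes of transmitter release, SYT4 and SYT11, both synaptotagmins, led per length with 286 ± 90.7 TPM and 170.1 ± 42.1 TPM. SNAP25, a membrane fusion protein, was at 36.2, 140.2 and 113 CPM. The granins, which package peptides and amines into secretory granules, were high: VGF was at 299, 631 and 742 CPM. SCG2 was at 202, 545 and 413 CPM, and CHGA, the chromaffin granule protein, at 63.7, 87.7 and 72.9 CPM. The prohormone convertases PCSK1 and PCSK2, which cut peptide precursors, were not expressed (0.117, 0.0569 and 0.175 CPM for PCSK1). Replicate 1 was the lowest library for 24 of the 29 cytoskeletal genes, 22 of the 30 synaptic genes and 9 of the 10 expressed granule genes, beside 39.4% of all expressed genes.

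Of 16 genes of catecholamine synthesis, storage and breakdown, 12 were expressed (75%, beside 65.4% of all protein-coding genes), and TH, PNMT, SLC18A2 and SLC6A3 were not. TH, the tyrosine hydroxylase that makes the dopamine precursor, was counted at 0 in the 3 vehicle libraries and had 3 reads in all 9. DDC, which makes dopamine, was at 47.6, 80.2 and 57.1 CPM. DBH, which turns dopamine into noradrenaline, was at 144, 90.7 and 86.9 CPM. The tetrahydrobiopterin enzyme GCH1, whose product is the cofactor of TH, was at 40.3, 61.5 and 53.8 CPM. PNMT, which makes adrenaline, was at 0.233, 1.48 and 0.291 CPM, above 1 CPM in replicate 2 alone. For storage, the vesicular transporter SLC18A1 was at 16, 25.6 and 15.8 CPM. The other vesicular transporter, SLC18A2, was at 0.583, 0.683 and 0.175 CPM, but with 43.9% of its exon bases unshared it had 776 reads by the strand columns, 31.0 times the joint count, so its level is uncertain. For uptake, the noradrenaline transporter SLC6A2 was at 30.3, 95.9 and 72.1 CPM, lowest in replicate 1, and the dopamine transporter SLC6A3 had 1 read in all 9 libraries. The breakdown enzyme MAOA, a monoamine oxidase, was at 34.5, 41 and 38 CPM.

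Parts of a cholinergic set were present as well. The vesicular acetylcholine transporter SLC18A3 was at 30.4, 23.3 and 26 CPM. The choline transporter SLC5A7 was at 4.84, 55.1 and 47.4 CPM. CHAT, which makes acetylcholine and hosts SLC18A3 in its first intron, was at 0.874, 0.626 and 0.583 CPM. The difference between replicate 1 and the others for SLC5A7, 11.4-fold from lowest to highest, was the widest of the list's expressed genes apart from BCHE, a butyrylcholinesterase at 10.02, 0 and 0.524 CPM. Of 19 amino acid and other small transmitter genes, 7 were expressed (36.8%, beside 65.4% of all protein-coding genes). In that list 4 genes reached 10 CPM and 1 reached 100 CPM. GAD1, which makes GABA, was not expressed, at 0.758, 0.398 and 0.874 CPM, and GAD2 and the serotonin enzyme TPH2 were counted at 0.

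Of 32 neuropeptide genes, 10 were expressed (31.3%, beside 65.4% of all protein-coding genes). Counted at 0 were 11 of them, beside 16.7% of all protein-coding genes. NPY, a peptide co-released with noradrenaline, led per length at 533 ± 398 TPM, with 38.6, 149 and 260.1 CPM in replicates 1, 2 and 3. VIP, a peptide of cholinergic sympathetic neurons, followed at 238 ± 132 TPM, with 46, 166 and 131 CPM. The strand sum of VIP was 2.03 times its joint count. The spread of each exceeded a 3-fold range, and replicate 1 was the lowest library for both. GAL, or galanin, was steadier at 18, 23.8 and 20.3 CPM. The opioid precursors PENK, PDYN and POMC, and also SST, TAC1 and CARTPT, were counted at 0.

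**Figure D3:**
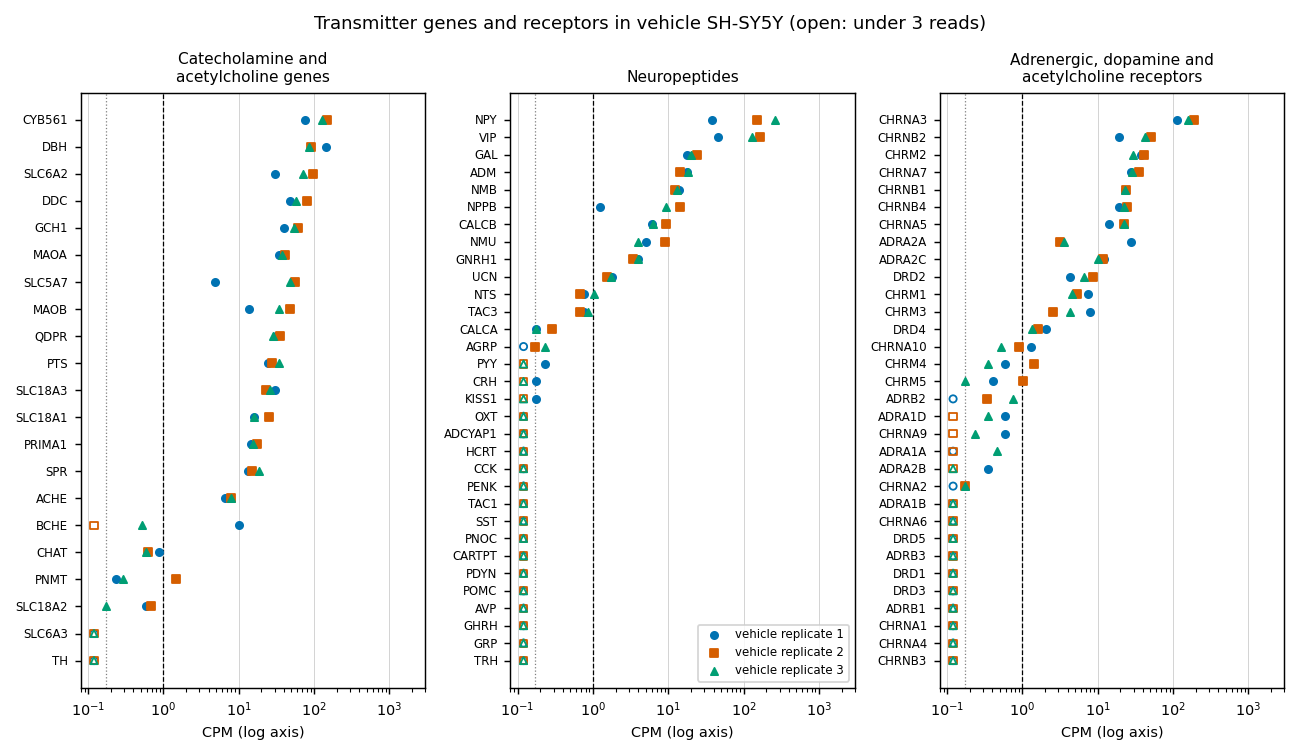
Levels of transmitter genes, neuropeptides and receptors in CPM on a log axis in the 3 vehicle libraries (symbols and colours by replicate; open symbols, under 3 reads; dotted line, about 3 reads; dashed line, 1 CPM). Not every member of these lists is drawn. DBH, DDC and SLC6A2 lie between 30.3 and 144 CPM while TH sits at the left edge, and 11 neuropeptides have no read.

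The plot of transmitter genes also sets out the receptors. For acetylcholine, 9 of 18 nicotinic and muscarinic receptor genes were expressed (50%, beside 65.4% of all protein-coding genes). CHRNA3, the alpha subunit of the ganglionic nicotinic receptor, was at 113, 189 and 158 CPM and led the list per length at 105 ± 28.4 TPM. Its partners CHRNB2 (21 ± 9.52 TPM), CHRNA5 (17.7 ± 4.49 TPM) and CHRNB4 (14.5 ± 2.28 TPM) lay below it, their values overlapping within the SD, and CHRNA7, which forms homomeric receptors, was at 4.72 ± 0.698 TPM. Among muscarinic receptors CHRM2 was at 37.1, 40.6 and 29.1 CPM. CHRM3, through which carbachol raises calcium in these cells, was at 7.93, 2.56 and 4.25 CPM. The strand sum of CHRNA5 was 2.74 times its joint count. CHRNA4 and the muscle subunit CHRNA1 were counted at 0.

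Receptors for amines were fewer, with 4 of 14 adrenergic and dopamine receptors expressed (28.6%, beside 65.4% of all protein-coding genes). ADRA2C was at 11.9, 11.7 and 10.02 CPM. ADRA2A was at 27.2, 3.19 and 3.61 CPM, 8.54-fold from lowest to highest, with replicate 1 on top. DRD2, the dopamine autoreceptor, was at 4.25, 8.54 and 6.64 CPM. The beta receptors ADRB1 and ADRB3 and the dopamine receptors DRD1, DRD3 and DRD5 were counted at 0.

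Other receptor classes were expressed in part, in shares under or near the 65.4% of all protein-coding genes. Of 24 glutamate receptor genes 12 were (50%), led per length by the kainate subunit GRIK5 (32.6 ± 6.7 TPM) and the AMPA subunit GRIA3 (18.9 ± 5.31 TPM), while GRIN2B was counted at 0. Of 31 GABA, glycine and serotonin receptor genes 9 were (29%), led by GABBR1 (21.6 ± 4.28 TPM). GABRB2, a GABA-A receptor subunit of brain, was counted at 0. Of 37 peptide, opioid, purine and lipid receptor genes 22 were (59.5%), with the endothelin receptor EDNRA (64.7 ± 18.8 TPM) and the bradykinin receptor BDKRB2 (56.8 ± 27.1 TPM). The mu opioid receptor OPRM1 was at 26.1, 100.4 and 57.7 CPM, and at 61.4 TPM it was the highest of this list with the length of the longest transcript. The delta receptor OPRD1 was at 23.3, 26.3 and 20.1 CPM.

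Among 30 voltage-gated sodium and calcium channel genes, 18 were expressed (60.0%, beside 65.4% of all protein-coding genes). SCN9A, the sodium channel of peripheral neurons, was at 88.6, 124 and 106 CPM. CACNA1B, the N-type calcium channel of sympathetic nerve endings, was at 9.33, 32.2 and 21.8 CPM. CACNA2D1, an accessory calcium channel subunit, was at 48.1 ± 11.9 TPM. The muscle channels SCN4A and CACNA1S and the sensory channel SCN10A were counted at 0.

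Of 38 receptor tyrosine kinases and co-receptors, 33 were expressed (86.8%, beside 65.4% of all protein-coding genes). RET, the GDNF family receptor, led per length at 154 ± 89.7 TPM, and its level was 203, 534 and 236 CPM, with replicate 2 standing above the other two. ALK, which is mutated in a share of neuroblastomas, was at 47.3, 58.6 and 42 CPM. DDR2, a collagen receptor, was at 342, 344 and 401 CPM. PDGFRB, a mesenchymal growth factor receptor, was at 165, 105 and 125 CPM. The 3 libraries lay within a 2-fold range for these kinases, unlike RET. NTRK2, the BDNF receptor, was at 6.18, 10.9 and 3.2 CPM. KIT, a stem cell factor receptor, was at 23, 4.5 and 3.85 CPM, highest in replicate 1. Of 26 growth factor ligands 18 were expressed, a share of 69.2% near that of all genes, with MDK (495 ± 35.1 TPM), or midkine, ahead of its relative PTN (188 ± 13.1 TPM) per length. IGF1 and the ALK ligand ALKAL1 were counted at 0.

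Most growth drivers of neuroblastoma were expressed, 29 of 31 (93.5%, beside 65.4% of all protein-coding genes). MYCN was low among them at 4.79 ± 1.21 TPM. MYCN, amplified in a share of neuroblastomas but not in this line, was at 2.91, 4.67 and 3.85 CPM. MYC, its relative, was at 61, 20.5 and 19.8 CPM, highest in replicate 1. Replicates 2 and 3 were alike for MYC, and the range of MYCN stayed under 2-fold. Per length HMGA1 (339 ± 7.62 TPM), a chromatin protein, CCND1 (334 ± 70.9 TPM), a cyclin of the G1 phase, and TWIST1 (332 ± 31.2 TPM) were within each other's spread, and PRAME (297 TPM), CCND1 (295 TPM), TWIST1 (319.8 TPM) and HMGA1 (288 TPM) lay close together with the length of the longest transcript. CCND1 was at 392, 576 and 512 CPM, while its relative CCND2 had 2 reads in all 9 libraries. PRAME, a cancer-testis antigen, was at 355, 323 and 304 CPM. LIN28B, which blocks let-7 maturation, was at 9.44, 13.1 and 10.3 CPM. TERT, the telomerase enzyme, was at 12.1, 10.02 and 5.94 CPM.

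Of 23 tumour suppressor genes, 22 were expressed (95.7%, beside 65.4% of all protein-coding genes). CDKN1A, the p21 cell cycle inhibitor, was at 162, 387 and 457 CPM and led per length at 361 ± 170.4 TPM. MDM2, a ubiquitin ligase, was at 66.9, 131 and 159 CPM. Replicate 1 was the lowest for both. CDKN2A, the p16 locus, was at 5.54, 3.81 and 3.32 CPM, with a strand sum 1.67 times its joint count.

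A list of neuroblastoma surface antigens and antigen presentation genes had 23 of 25 expressed (92.0%, beside 65.4% of all protein-coding genes). It mixes surface antigens with ganglioside enzymes and histocompatibility genes, so this is no share of target antigens. GPC2, a glypican, was at 58.2, 73.2 and 54.7 CPM. CD276, or B7-H3, was at 124, 130.5 and 128 CPM. B4GALNT1, an enzyme of GD2 synthesis, was at 22.3, 30.1 and 23.9 CPM, with a strand sum 2.04 times its joint count. ST8SIA1, the GD3 synthase before it, was at 5.42, 0.398 and 1.86 CPM. The class I chain B2M was at 511, 533 and 589 CPM, whereas the class II genes HLA-DRA and CD74 stayed under 1 CPM on average.

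The most abundant transcripts came from the mitochondrial genome, which made up 11.2% to 11.9% of gene reads. MT-CO1, a cytochrome oxidase subunit, was at 32271, 30554 and 30359.7 CPM. The 25 most abundant protein-coding genes held 12.2% to 13.7% of gene reads. Among nuclear genes EEF1A1, a translation elongation factor, was at 9549.7, 8585 and 9037 CPM. ACTB, a cytoskeletal actin, was at 3596, 3451 and 4193 CPM. RGS5, a regulator of G protein signalling known best from pericytes, was at 5384, 5958 and 4971 CPM, and was the nuclear gene with the most reads after EEF1A1. The matrix protein genes FN1, COL3A1 and TNC also ranked above 1000 CPM on average. TNC, which encodes tenascin C, was at 1218, 1587 and 1997 CPM, highest in replicate 3.

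**Figure D4:**
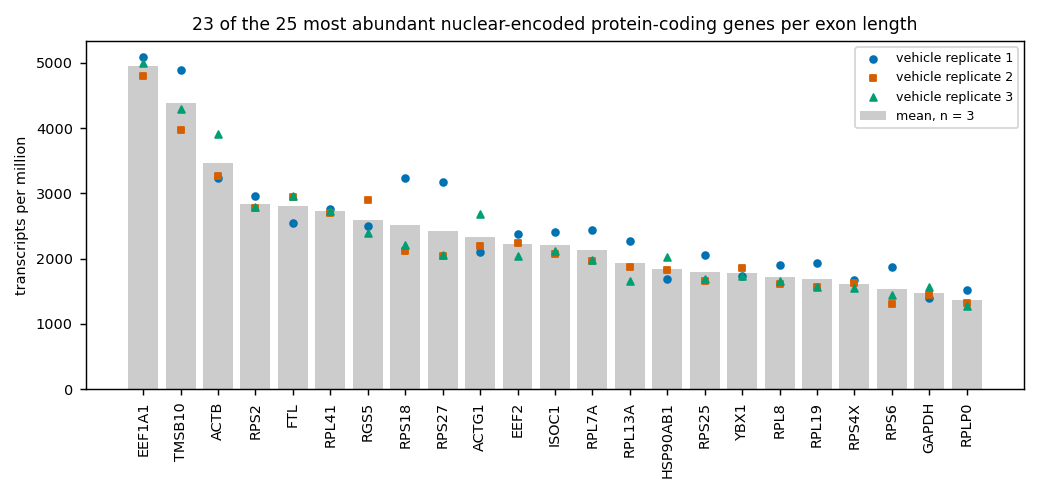
23 of the 25 nuclear-encoded protein-coding genes with the highest level per exon length: grey bars, mean TPM over the 3 vehicle libraries; points, the single libraries. EEF1A1 leads at 4959 TPM, ribosomal protein genes fill many of the places, and RGS5 is among them.

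The bar plot of levels per exon length included EEF1A1 (4959 ± 146 TPM), TMSB10 (4383 ± 470.4 TPM), an actin-binding thymosin, and ACTB (3471 ± 385 TPM). RGS5 was at 2599.8 ± 269 TPM. ISOC1, an isochorismatase-domain protein, was at 2204 ± 179 TPM. FTH1, the ferritin heavy chain, lay outside the 25 at 1238 ± 152 TPM, but its strand sum was 3.95 times the joint count. Cytosolic ribosomal proteins took 5.15% to 6.75% of gene reads, most in replicate 1, and their levels are uncertain where processed pseudogenes carry the same sequence.

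Metabolic genes differed between the libraries about as much as genes in general, with a median ratio of highest to lowest of 1.23 for glycolysis and 1.17 for the tricarboxylic acid cycle, beside 1.24 over all expressed genes and 1.59 for the neuronal cytoskeleton list. For glycolysis, 25 of 34 genes were expressed (73.5%, beside 65.4% of all protein-coding genes). GAPDH was at 1318, 1299 and 1422 CPM, with a strand sum 1.68 times its joint count. ENO1 was at 1181, 1133 and 1136 CPM. PKM, the pyruvate kinase gene, was at 1232, 1375 and 1486 CPM. LDHA, which makes lactate, was at 751, 799 and 740.1 CPM. No library stood apart for these 4 enzymes. G6PC1 and PCK1, which act in glucose production by liver and kidney, and the liver glucose transporter SLC2A2 were counted at 0, and SLC2A1, the general glucose transporter, was at 113, 76 and 62.3 CPM. In the tricarboxylic acid cycle 28 of 29 genes were expressed (96.6%), led per length by MDH2 (252 ± 20.8 TPM), and the testis gene PDHA2 was counted at 0. Serine, one-carbon and nucleotide synthesis had 24 of 25 genes expressed (96.0%), led by IMPDH2 (213 ± 12.9 TPM), and lipid metabolism 24 of 26 (92.3%), with HADHA at 224 ± 11.6 TPM.

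Of 28 matched genes that handle foreign compounds, 13 were expressed (46.4%, beside 65.4% of all protein-coding genes). GSTP1, a glutathione transferase, was at 290.1, 275 and 248 CPM. NQO1, a quinone reductase, was at 87.9, 97.2 and 87.2 CPM. The drug exporter ABCB1 was at 117, 162 and 113 CPM. Cytochrome P450 genes of drug metabolism were low, with CYP1A1 at 1.52, 2.22 and 1.63 CPM and CYP3A4 at 1 read in all 9 libraries. SLC22A6 and SLC22A8, the renal organic anion transporters, and SLCO1B1, a hepatic one, were counted at 0 in the vehicle libraries. GSTP1 and NQO1 differed little between the 3 libraries, and ABCB1 was highest in replicate 2.

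Families with restricted expression were largely without reads. Among 389 olfactory receptor genes, 360 had no read and none was expressed, and 85 of 94 keratin-associated protein genes and 41 of 45 defensin genes had no read, beside 16.7% of all protein-coding genes. Cancer-testis genes of the MAGEA, MAGEB and MAGEC families were less empty, with 11 of 26 (42.3%) without a read and 7 (26.9%) expressed, the latter beside 65.4% of all protein-coding genes. MAGEA3 was at 37.3, 57.1 and 63.1 CPM and MAGEC1 at 16.4, 33.4 and 31.5 CPM; MAGEA3 and MAGEA6 are nearly identical, so their split is uncertain. Clustered protocadherins, which give neurons surface identity, were expressed in 12 of 16 beta (75%), 10 of 22 gamma (45.5%) and 7 of 13 alpha genes (53.8%). These shares cannot be compared between clusters, since many alpha and gamma genes share exon bases with other annotated genes. In the highest gene of each cluster by CPM, the unshared part was 98.2% for PCDHB6, 59.8% for PCDHGC3 and 62.8% for PCDHA10. Alpha and gamma counts may thus be too low. Of 41 chemokine genes 9 were expressed (22.0%), among them CCL2, which attracts monocytes, at 567, 725 and 888 CPM and the neutrophil attractant CXCL8 at 77.3, 283 and 391 CPM, both lowest in replicate 1 and highest in replicate 3. Replicate 3 was the highest library for 26.8% of all expressed genes and the lowest for 33.0%, and replicate 2 the highest for 33.4%.

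Between the 3 vehicle libraries most genes differed little. The median ratio of the highest to the lowest library was 1.24 over expressed genes, and 1124 of 12989 (8.65%) had a range of at least 2-fold. At 10 CPM or more, 402 genes had such a range. Replicate 1 differed at least 2-fold from replicate 2 at 336 of those 10107 genes and from replicate 3 at 248, whereas replicates 2 and 3 differed so at 32. Over the other two libraries, 234 expressed genes had a 2-fold range without replicate 1 and 688 without replicate 2.

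Among genes of at least 10 CPM on average, the widest ranges after POSTN belonged to SLC38A4, an amino acid transporter at 28.3, 0.911 and 15.4 CPM, ZBED10P at 1.63, 50.04 and 28 CPM, and PTGS2, the inducible cyclooxygenase, at 10.7, 256 and 319 CPM. WFDC2, a secreted protease inhibitor, was at 0.758, 20.2 and 11.1 CPM. Replicate 2 stood apart for POSTN and SLC38A4, and replicate 1 for the other three. FBLN5, an elastic fibre protein, was lowest in replicate 2, at 34, 1.54 and 16.1 CPM. COL1A2, a collagen chain, had the same order at 25.1, 2.11 and 16.2 CPM. CDCP1, a surface glycoprotein, was lowest in replicate 1 and highest in replicate 3, at 1.22, 12 and 30.4 CPM. The secretory vesicle gene RAB27B had that order too, at 2.16, 17.5 and 37.3 CPM.

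**Figure D5:**
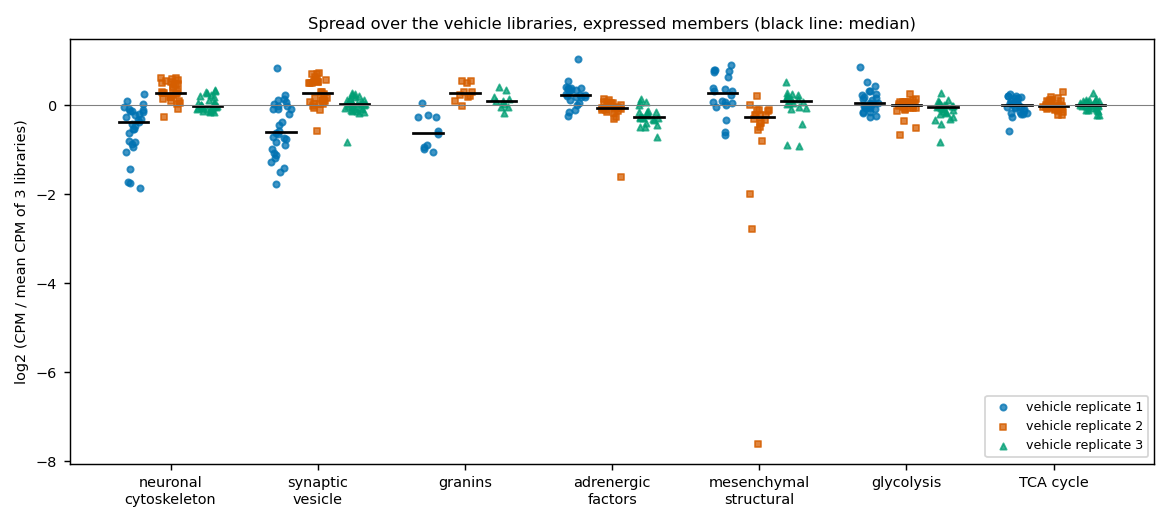
Expressed members of 7 gene lists: the log2 ratio of each library's CPM to the mean CPM of the 3 vehicle libraries, with a black line at the list's median for each library; a library with under 3 reads is drawn at about 3 reads. Replicate 1 lies below the others for neuronal and granule genes and above them for adrenergic factors, replicate 2 lies lowest for mesenchymal structural genes, and glycolysis and tricarboxylic acid cycle genes lie near 0 in all 3.

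The plot of the spread shows groups of genes that differed together between replicates of 1 treatment. Neuronal cytoskeleton genes summed to 5334, 7520.5 and 6335 CPM in replicates 1, 2 and 3, adrenergic factors to 4885, 3793 and 3418 CPM, and mesenchymal structural genes to 8489, 6054 and 8463 CPM. In replicate 1 the neuronal sum was the lowest and the adrenergic sum the highest. The markers of unrelated cell types had a near-constant sum, as given above, but single ones varied. Of the 4 expressed, KRT19 (0.466, 1.76 and 1.46 CPM) and EPCAM (2.16, 0.968 and 1.34 CPM) had a 2-fold range. These rest on 8, 31 and 25 reads for KRT19 and 37, 17 and 23 for EPCAM, where counting error alone widens ranges. The share of genes with such a range depends on level, being 8.65% of all expressed genes and 3.98% of those at 10 CPM or more. Neither share is a like reference for genes near 1 CPM. ALB, the liver albumin gene, had 19, 0 and 2 reads in replicates 1, 2 and 3. LYZ, a lysozyme of myeloid cells, had 13, 0 and 0 reads. Their part in these differences was not tested.

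The same ordering was seen in the libraries of the other doses. Of the 402 genes at 10 CPM or more with a 2-fold range, 373 (92.8%) had the same replicate number as the lowest library in all 3 groups, and 367 (91.3%) the same number as the highest. Over all 12989 expressed genes these shares were 45.5% and 47.6%. Among the 24 neuronal cytoskeleton genes lowest in vehicle replicate 1, 21 were lowest in replicate 1 at 10 and at 20 µM too, as were 62.3% of all expressed genes lowest in vehicle replicate 1. All 18 adrenergic factors highest in vehicle replicate 1 were also highest in replicate 1 at those doses, as were 57.2% of all expressed genes highest in it. The labels do not say what a replicate number stands for.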

How the data were processed

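Total RNA was sequenced, and the authors deposited tables of raw read counts per gene for each library, with a column for both strands together and a column per strand. Per the submitters' processing notes, FastQC, cutadapt, STAR, edgeR and the GRCh38 build were used. The tools' versions are not stated in the sources used here, nor is the annotation used for counting. The joint counts were used, because the strand columns were about equal (ratio 1.007 to 1.020). Reads without a gene (7.46% to 7.98%), ambiguous (9.74% to 9.95%), unmapped or mapped to several places stayed out of totals. CPM are relative to all gene reads of a library. TPM used the length of all exon bases of a gene, with the longest transcript as an alternative, in GENCODE 29, which holds 58312 of 61487 identifiers, and 61369 had a symbol. With 1 group no test was made, and libraries are given singly or as mean ± SD (Python 3.11.15, pandas 2.3.3). Alternative scalings came from edgeR 4.0.16 and DESeq2 1.42.0 in R 4.3.3. The calls were tested on simulated data.

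The members and 34 gene lists were chosen with earlier results of these data known, and the symbol families after seeing these. Of 841 listed entries 840 matched. Named were the 4 markers, the 15 genes highest in CPM and per length, in each list up to 8 highest per length, up to 8 without reads and the one with the widest range, the 10 genes of at least 10 CPM with the widest range, and a set of well-known genes. Other genes named were chosen after their values were seen. No 2 vehicle libraries were duplicates: their counts gave a chi-square of 10.2 to 29.4 for each degree of freedom. Some genes of these lists are counted in the totals and not reported here by name.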

Additional observations from a re-analysis of the deposited data

How the results depend on the processing

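The count of expressed genes and that of genes without reads stayed within 1.5 times of the values given under TMM factors, DESeq2 size factors, a total without mitochondrially encoded genes, the summed strand columns, other thresholds and each left-out library. For expressed genes that bound is wide, since even the 10107 genes of at least 10 CPM lie within it, so it says little about stability. Leaving out genes with under 20% of exon bases of their own, which was chosen after seeing the data, kept the count without reads within that bound too. The number of expressed genes with a 2-fold range did not: it was 1124 with 3 libraries, 234 to 839 when a library was left out (lowest without replicate 1, 688 without replicate 2), 402 for genes of at least 10 CPM and 2369 for genes with a read in every library. The 25 most abundant genes held 12.9% of gene reads, 11.97% by the strand columns and 6.30% with mitochondrial genes left out. The mitochondrial share was 11.5%, and 10.6% by the strand columns; it has no value for a total without those genes. Short lists moved with the threshold: central nervous system factors from 1 to 2 expressed at 0.5 CPM and by the strand columns, sensory factors from 4 to 1 and markers of unrelated cell types from 4 to 2 at 2 CPM. No paired analysis was possible because the 3 libraries form 1 group and no test was made. Of 409 named levels in CPM, 96 moved by more than the SD of the replicates with the strand columns, among them abundant genes such as VIM, and 98 with mitochondrial genes left out of the total. None moved so under the other scalings or a left-out library. Of 409 levels per exon length, 126 moved so with the longest transcript, which turned some orders as given above. Depth limits levels under about 0.175 CPM, and reads shared between genes limit values at any level.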
